A study of Acipenser baerii with 14 samples.

Results

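The genes of mitochondrial oxidative phosphorylation were followed through the ampullary organs (AO), neuromasts (NM) and general epithelium (EP) of larval Siberian sturgeon. They were chosen by name: every assembled gene whose annotated symbol began with NDUFA, NDUFB, NDUFC, NDUFS, NDUFV, SDHA to SDHD, UQCR, COX4 to COX8, ATP5, CYC1 or CYCS was a member. This gave 69 contigs of 62 symbols out of 23448 genes in the table, and all 69 were among the 21978 genes tested. By the complex they belong to, 38 contigs were of complex I, 6 of complex II, 6 of complex III, 6 of complex IV and 13 of complex V. The symbol COX7A2 had 3 contigs, and NDUFAF5, NDUFAF7, NDUFS1 and NDUFV1 were among those with 2. Of the 69 contigs, 57 carry the name of a subunit and 10 that of an assembly factor, and the others are the inhibitor ATP5IF1B and the supercomplex factor COX7A2L.

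Oxidative phosphorylation takes place in the inner membrane of the mitochondrion. Complex I oxidises NADH and complex II, which is also a step of the citric acid cycle, oxidises succinate. Their electrons pass through ubiquinone, complex III and cytochrome c to complex IV, which reduces oxygen, and the proton gradient built on the way drives the ATP synthase, complex V. Most subunits are encoded in the nucleus, a few of complexes I, III, IV and V in the mitochondrial genome, and dedicated assembly factors put the complexes together. Neomycin, an aminoglycoside antibiotic, kills hair cells of the lateral line.

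RNA was sequenced in 14 libraries of 7 groups, each of 2 libraries: AO, the electroreceptive organs, and NM, the mechanoreceptive organs, each from untreated larvae, at 12 h and at 24 h after treatment (hpt), and EP from untreated larvae. Treated larvae were kept in 200 µM neomycin for 1 h at 10 days post hatching. A separate set of 15 larvae was used for untreated, 12 hpt and 24 hpt. Untreated AO, NM and EP came from the same larvae, as did AO and NM at each later time. The tissue of each organ was pooled over its 15 larvae and the pool was divided for RNA extraction. Both libraries of a group therefore share 1 pool, and p-values measure only the spread between them. Time after treatment and set of larvae cannot be told apart. EP came from the ventral side of the trunk and AO and NM from the head, so organ and body position cannot be told apart, and no treated EP was sequenced. An exact permutation of 2 libraries against 2 cannot give a p below 0.333, so the false discovery rates (FDR) below depend on the spread that edgeR estimates from many genes together.

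The authors deposited expected counts that summed to 7121038 to 10067958 per library. Levels are given here as CPM, counts scaled to library size with TMM factors, and log2 fold changes as the estimate ± its standard error (SE). The SE was derived from the F statistic of the fit of all 14 libraries (2 libraries per group), so it rests on a spread shared across groups. A member passed when edgeR's quasi-likelihood test gave it a Benjamini-Hochberg FDR under 0.01, with no minimum fold. The length of the contigs was not used, so levels are compared between groups and not between genes. Mean counts of the members ran from 18.2 to 6540 per library with a median of 884, and none had a count of 0 in any library. Gene names come from proteins of other species, and near-identical copies can share reads in the counting. Only peptides of over 100 residues were annotated, which leaves out many of the smallest subunits.

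Markers of other cell types differed strongly between the groups. Of the skeletal muscle markers 12 of 14 symbols were found, as 61 contigs, and none of the 12 was at 0 in any group. Their summed level ran from 248 to 258 CPM in untreated NM, 457 to 476 in untreated AO, 575 to 589 in NM at 24 hpt, 5811 to 5891 in AO at 12 hpt, 11225 to 11388 in NM at 12 hpt, 13679 to 14044 in AO at 24 hpt and 35538 to 35599 in EP. Single muscle contigs at 0 numbered 21 in untreated NM, 17 in untreated AO, 14 in NM at 24 hpt, 3 in NM at 12 hpt and 1 in AO at 12 hpt. Hair cell markers (16 of 20 symbols, 48 contigs) summed to 216 to 221 CPM in EP. The AO sums were 298 to 304 at 24 hpt and 555 to 584 untreated. Those of NM were 385 to 406 at 24 hpt and 418.1 to 419.9 untreated. A few genes weighed most in these sums: in EP the mean of MYO6 was 106 CPM, of XIRP2 58.3 and of OTOF 15.5, while OTOF had 244 in untreated AO. Single contigs did not all follow the sums. Of 42 tested, 9 passed as higher and 2 as lower in NM at 24 hpt against untreated NM, at a median log2 fold change of 0.25. For AO at 24 hpt these counts were 6 and 14. Neuron markers summed to 313 to 344 CPM in untreated AO and 1070.2 to 1126 at 24 hpt, and to 123 to 145 in untreated NM and 1326 to 1375 at 24 hpt. Liver markers stood at 410.1 to 435 in untreated NM, at 275 to 281 in NM at 12 hpt and at 10.7 to 89.4 in the other groups. The muscle sums ran high in the same groups as some of the members described below. For no list was a link to the members tested. In bulk samples fewer cells of a type and less RNA per cell cannot be told apart.

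Over all 13 comparisons, 29 of the 69 members passed in at least 1, against 61.1% of all genes tested, and 40 in none. These counts are from the fit without the replicate number as a block. A change of more than 2-fold at that FDR was found in 4 members, COX5B, UQCRQ and both COX7A2 contigs named DN101928, against 36.3% of all genes. Raw counts gave the members a share of 0.898% to 0.919% of each EP library, 0.952% to 0.963% in untreated AO, 0.971% to 1.00% at 12 hpt and 1.07% to 1.10% at 24 hpt. In NM these shares were 0.959% to 1.01% untreated, 0.952% to 1.00% at 12 hpt and 1.04% to 1.11% at 24 hpt. As a share of raw counts the members were therefore lowest in EP and highest at 24 hpt in both organs, and the AO ranges of the 3 times did not overlap.

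The scaling matters for this family. TMM factors ran from 0.833 in EP to 1.19 in NM at 24 hpt. With library totals instead of TMM, the all-gene median of the log2 fold changes moved by 0.33 for AO against EP, 0.24 for AO against NM, 0.38 for NM at 24 hpt against untreated NM, 0.30 for NM at 24 hpt against 12 hpt, 0.15 for AO against NM at 12 hpt, -0.16 for AO against NM at 24 hpt and -0.40 for the difference of the organs' responses at 24 hpt. In the 3 comparisons of AO with AO it moved by no more than 0.02. A change of scaling shifts all genes of a comparison by nearly the same amount. The distance of the members' median from that of all genes is therefore nearly fixed by construction, and its steadiness tests nothing. For NM at 24 hpt against untreated NM it was -0.21 with TMM and -0.21 with library totals. Changes of the family outside AO are therefore given also relative to the median of all genes. Orders of groups given for single members are those with TMM scaling unless library totals are named.

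**Figure D1:**
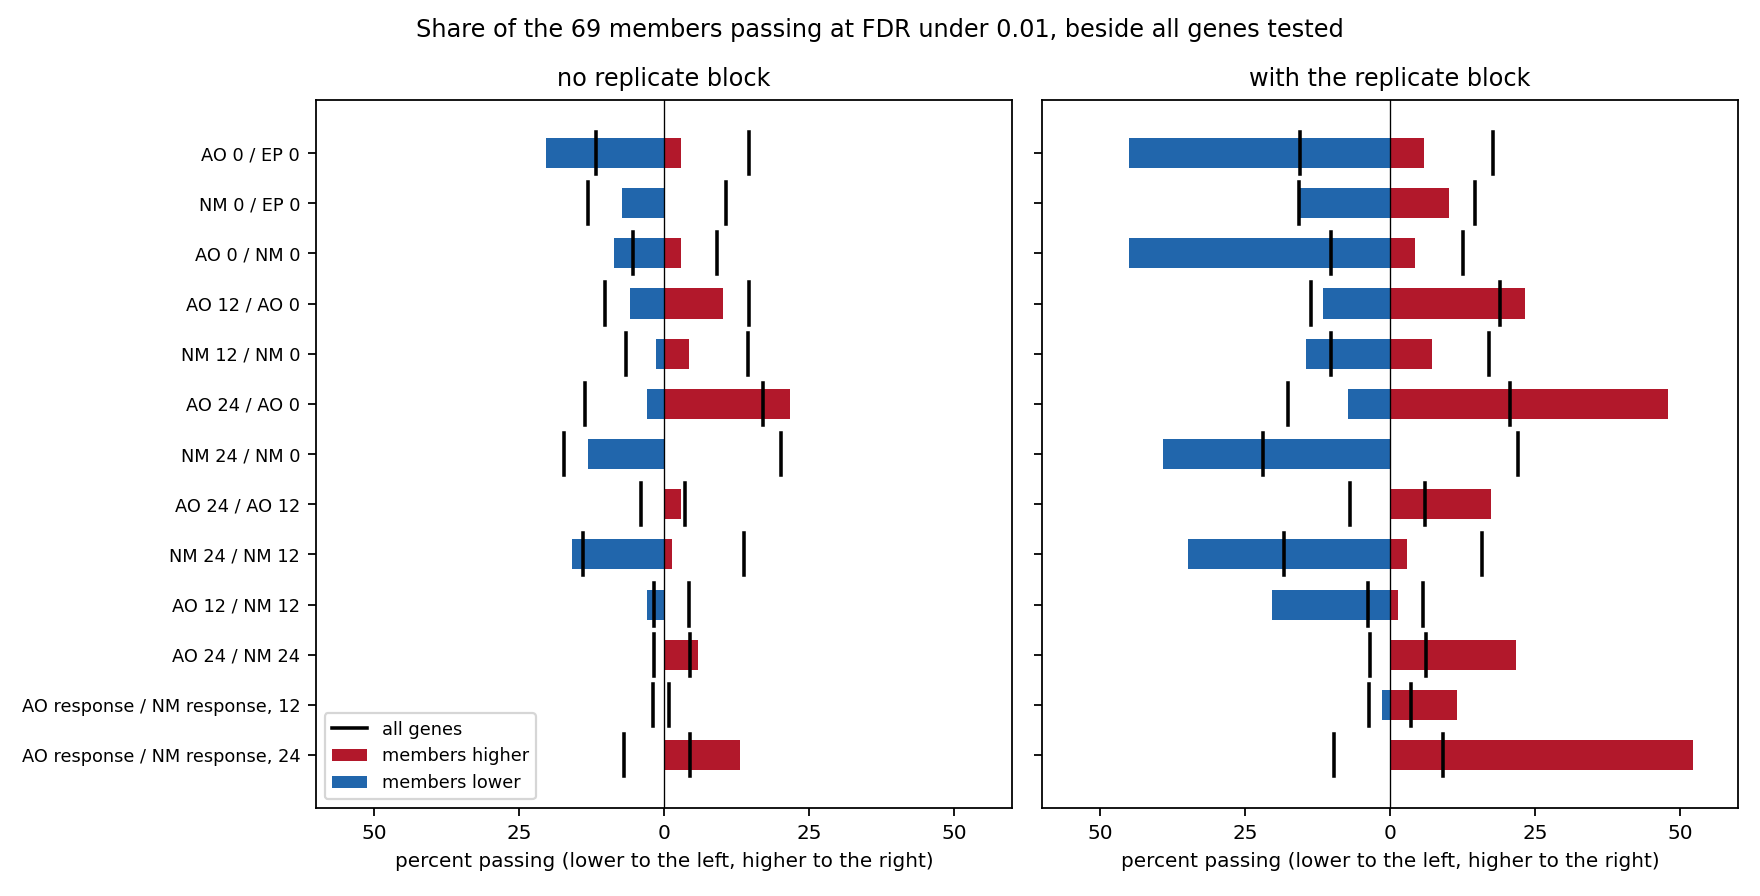
Percent of the 69 members that passed at an FDR under 0.01, higher to the right and lower to the left, in each of the 13 comparisons (0, 12 and 24 are untreated, 12 hpt and 24 hpt), with black ticks for all 21978 genes and the fit with the replicate number as a block on the right. With TMM scaling, lower calls outnumber higher ones for AO against EP (14 and 2) and NM at 24 hpt (9 and 0) and higher calls outnumber lower ones for AO at 24 hpt (15 and 2); with library totals AO against EP gives 8 and 7 and NM at 24 hpt 1 and 5.

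The first comparison set the untreated organs against EP, which held the highest skeletal muscle sum of all groups. Of 57 tested muscle contigs 50 were lower in untreated AO than in EP, at a median log2 fold change of -6.97. The part of muscle RNA in the members' differences was not tested. In untreated AO with TMM scaling, some members of complexes I and IV, SDHAF3 of complex II and UQCRQ of complex III passed as lower than in EP. Most of the 38 complex I contigs did not pass. Complex V held 2 members that were higher and 2 that were lower. With library totals the medians of all complexes but complex IV were above 0. As lower passed 14 of 69 members (20.3%; 11.8% of all genes) and 2 of 69 members (2.9%; 14.6% of all genes) as higher. The lower ones were COX5B, both COX7A2 contigs named DN101928 and COX7A2L of complex IV, UQCRQ of complex III, ATP5F1C and ATP5MC3 of complex V, the complex II assembly factor SDHAF3, and NDUFS6, NDUFS4, NDUFB6, NDUFB9, NDUFA5 and NDUFA8 of complex I. ATP5PB and ATP5F1A were the 2 higher ones. The median log2 fold change was -0.23 for the members and 0.09 for all genes, and 58 of 69 members lay below the latter.

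The split of the calls in AO against EP depended on the scale. With library totals the median of the members was 0.11 and 7 passed as higher (31.8% of all genes) and 8 as lower (7.22%). COX5B (-1.44), UQCRQ (-0.74), COX7A2L (-0.44) and both DN101928 contigs were among those that still passed as lower, and ATP5PB (0.74) and ATP5F1A (0.60) still passed as higher. ATP5F1A lost its call with DESeq2's size factors (edgeR FDR 0.0348), with DESeq2's Wald test, with the exact test and the fit on the groups compared, and when any 1 of the 4 libraries was left out. No member passed as higher with the exact test or the fit on the groups compared, so ATP5PB lost its call there too. The replicate numbers paired the libraries, and with them as a block 31 members passed as lower (15.5% of all genes) and 4 as higher (17.7%).

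Between untreated NM and EP fewer members passed. None of the 69 members passed as higher (10.7% of all genes did) and 5 as lower (13.1%): COX5B, both DN101928 contigs, UQCRQ and SDHAF3, which also were lower in AO. At an unadjusted p under 0.05, 15 members differed in either direction. Of 57 tested muscle contigs 52 were lower in untreated NM than in EP, at a median log2 fold change of -7.82. The part of muscle RNA in the calls was not tested. The members' median was 0.03, which turned to -0.02 when either the first untreated NM library or the second EP library was left out, and that of all genes was -0.001. The block gave 7 higher (14.6%) and 11 lower members (15.7%). Without the first or the second untreated NM library, or without the first EP library, the count fell from 5 to 3.

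Between the untreated organs, with TMM scaling, 6 members were lower in AO than in NM, 8.7% against 5.27% of all genes, and 2 were higher, 2.9% against 9.15%, while library totals gave 1 lower and 4 higher. NDUFS6, the inhibitor ATP5IF1B, NDUFB6, ATP5MC3, ATP5F1C and the NDUFS1 contig DN112120_c2_g1 were lower, and the stalk subunits ATP5PB and ATP5PO were higher. The median of the members was -0.29 against 0.13 for all genes, a gap of -0.42, with 59 of 69 below the median of all genes. With DESeq2's size factors 11 were lower (6.23% of all genes) and 1 higher (8.05%), and with TMM computed without members, mitochondrial and ribosomal genes 6 lower (5.42%) and 1 higher (8.93%). Of all genes, library totals called 1.97% lower and 20.8% higher. Under the block 31 were lower (10.2%) and 3 higher (12.6%). The count of 8 fell to 1 without the first untreated AO library and to 2 without the second or without either untreated NM library.

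**Figure D2:**
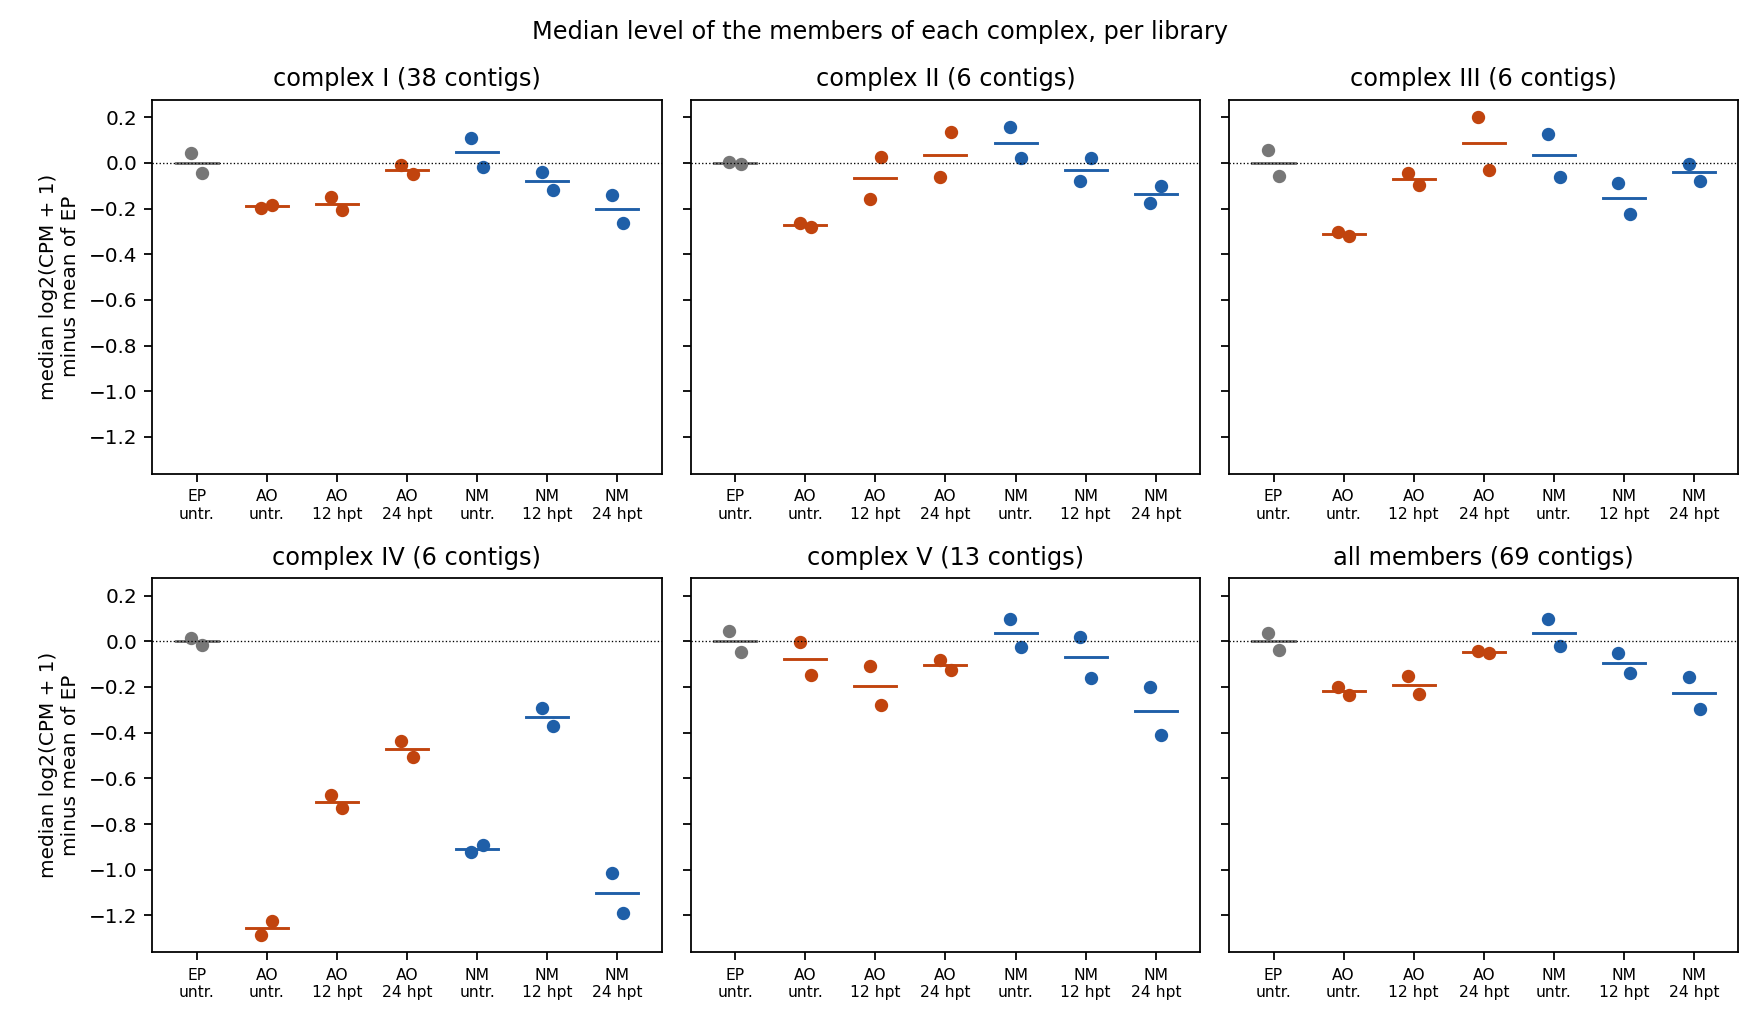
Median over the members of each complex of log2(CPM + 1) minus the EP mean, 1 point per library and a line at the group mean (untr., untreated). With TMM scaling complex IV lies lowest in untreated AO and in both NM groups other than 12 hpt. With library totals the medians of AO against EP become 0.15, 0.01, 0.03, -0.94 and 0.27 for complexes I to V. Of the 6 contigs of complex IV, 3 are of COX7A2, among them both DN101928 contigs of the same Trinity cluster. COX4 isoform 1 and COX6A, outside the naming rule, had log2 fold changes of -0.63 and -0.30 in AO against EP with TMM.

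The next comparisons followed AO after neomycin. At 12 hpt 7 members were higher than in untreated AO (10.1%, against 14.7% of all genes) and 4 lower (5.8%, against 10.1%). COX5B, both DN101928 contigs, COX7A2L, UQCRQ, the complex II anchor SDHC and NDUFS6 rose, and ATP5PB, ATP5PO, ATP5F1A and NDUFA9 fell. Of 57 tested muscle contigs 49 were higher and 1 lower, at a median log2 fold change of 4.11. The part of muscle RNA in the result was not tested. The block gave 16 higher (18.9%) and 8 lower (13.7%). Without the first untreated AO library 4 passed in place of 11, and without the first or second library of AO at 12 hpt 7 and 6.

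At 24 hpt 15 members were higher than in untreated AO, 21.7% against 17.1% of all genes, and 2 were lower, 2.9% against 13.6%. The higher ones were NDUFS6, NDUFB9, NDUFS8, NDUFS4, NDUFV2 and 1 contig each of NDUFV1 and NDUFS1 in complex I, SDHC in complex II, UQCRQ and UQCRC1 in complex III, COX5B, COX7A2L and both DN101928 contigs in complex IV, and ATP5F1C in complex V. ATP5PB and ATP5PO, which hold the head of the ATP synthase to the membrane, were the 2 lower ones. The members' median was 0.27 and that of all genes -0.01, and 54 of 69 members lay above the latter. Complex medians were 0.26, 0.29, 0.42, 0.75 and 0.07 for complexes I to V. With library totals they were 0.24, 0.28, 0.40, 0.74 and 0.05. The median of complex IV rests on 6 contigs, among them both DN101928 contigs. With the block, 33 members were higher (20.7% of all genes) and 5 lower (17.6%). The count of 17 fell to 8 and 9 without the first and second untreated AO library and to 9 and 11 without the first and second library of AO at 24 hpt.

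In the same comparison 51 of 57 tested contigs of muscle markers were higher and 1 lower, with a median log2 fold change of 5.47. The part of muscle RNA in the members' change was not tested.

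From 12 hpt to 24 hpt in AO, ATP5PB (log2 fold change 0.34 ± 0.06, edgeR FDR 0.00422) and the complex I core subunit NDUFV2 (log2 fold change 0.39 ± 0.08, edgeR FDR 0.00962) rose, 2.9% of the members against 3.64% of all genes. No member fell (3.93% of all genes did), and 13 members had an unadjusted p under 0.05 in either direction. The block gave 12 higher (6.0%) and 0 lower (6.98%). No member passed when a library of AO at 12 hpt or 24 hpt was left out, against 2 in the full set, and 1 passed without any 1 of the NM or EP libraries.

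In NM the members' median lay below that of all genes at both times. At 12 hpt COX5B and both DN101928 contigs were higher than in untreated NM (4.35% of the members, 14.4% of all genes) and ATP5PB was lower (1.45% against 6.52%). Of 57 muscle contigs 46 were higher, at a median of 5.58, and their part in the result was not tested. The members' median lay 0.14 below that of all genes, with 51 of 69 below it; the fold change itself was -0.07 with TMM and 0.0054 with library totals. With the block 5 were higher (17.0%) and 10 lower (10.1%).

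At 24 hpt, with TMM scaling, 9 members were lower than in untreated NM, 13% against 17.2% of all genes, and none was higher, against 20.1%; with library totals 1 was lower (6.48%) and 5 were higher (31.1%). The 9 were 5 of complex V (ATP5IF1B, ATP5MC3, ATP5PB, ATP5PO and ATP5PD), NDUFB6 and NDUFV3 of complex I, SDHB of complex II and COX5B. Only ATP5IF1B kept its call with library totals (-0.36, edgeR FDR 0.00761), and ATP5PB turned to 0.02. The members' median lay 0.21 below that of all genes, with 56 of 69 below it. With the block 27 members were lower (21.9%) and 0 higher (22.1%). At an unadjusted p under 0.05, 28 members differed. In the same comparison 18 of 25 keratinocyte contigs fell, with sums of 22842 to 23489 CPM in untreated NM and 11555 to 12122 at 24 hpt, and 16 of 18 neuron contigs rose and 1 fell, at a median of 4.07. The part of these markers in the result was not tested. The count of 9 fell to 5 without the second untreated NM library, without either library of NM at 24 hpt and without either EP library, which enter only through the shared fit.

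From 12 hpt to 24 hpt in NM, 11 members fell (15.9%, 14.0% of all genes) and the NDUFV1 contig DN90889_c3_g1 rose (1.45%, 13.8%). COX5B, both DN101928 contigs, SDHAF3, ATP5IF1B, ATP5MC3, NDUFB6, ATP5PO, NDUFA6, ATP5F1C and UQCRQ were those that fell with TMM scaling, and with library totals 4 members fell (6.86%) and 9 rose (22.7%). With the block 24 fell (18.2%) and 2 rose (15.9%). The members' median was -0.17 and that of all genes -0.06 with TMM, and 0.14 and 0.25 with library totals. Over the same interval 39 of 57 muscle contigs fell, at a median of -4.27, and their part in the result was not tested. Leaving out the first library of NM at 12 hpt gave 6 members in place of 12, and leaving out the first or second of NM at 24 hpt 7 and 6.

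The organs were also compared directly at each time. At 12 hpt COX5B (log2 fold change -0.65 ± 0.10, edgeR FDR 0.00194) and NDUFB6 (log2 fold change -0.40 ± 0.08, edgeR FDR 0.00897) were lower in AO than in NM, 2.9% of the members against 1.71% of all genes, and none was higher, against 4.33%. With library totals 1 was lower (1.08%) and 1 higher (6.13%), and with the block 14 were lower (3.83%) and 1 higher (5.72%). No member passed when 1 of the 4 libraries was left out, and 1 passed without any 1 library of AO at 24 hpt, untreated NM, NM at 24 hpt or EP. At an unadjusted p under 0.05, 21 members differed. The members' median was -0.10 and that of all genes 0.002 with TMM, and 0.05 and 0.15 with library totals.

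At 24 hpt COX5B, both DN101928 contigs and ATP5MC3 were higher in AO than in NM (5.8%, 4.53% of all genes) and none was lower (1.65% of all genes). Of the 69 members, 63 lay above the median of all genes, by a median of 0.17. The members' median itself was 0.17 with TMM and 0.01 with library totals, and that of all genes -0.0007 and -0.16. With the block 15 were higher (6.26%) and 0 lower (3.38%), and 19 members had an unadjusted p under 0.05. The muscle sum was then 13679 to 14044 CPM in AO and 575 to 589 in NM, and its part in the 4 calls was not tested.

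The interaction term asked whether the response from untreated to 24 hpt differed between the organs. With TMM scaling 9 members had a log2 fold change in AO above that in NM, 13% against 4.50% of all genes, and none below it, against 6.91%; with library totals 2 passed in the first direction (1.77%) and 2 in the other (19.4%). The 9 were NDUFB6, NDUFB9 and NDUFS6 of complex I, UQCRQ of complex III, COX5B and the COX7A2 contig DN101928_c2_g2 of complex IV, and ATP5F1C, ATP5IF1B and ATP5MC3 of complex V. For ATP5IF1B, ATP5MC3 and NDUFB6 it was, with TMM scaling, the fall in NM that passed, while the change in AO did not. With library totals only the fall of ATP5IF1B in NM passed, and those of ATP5MC3 and NDUFB6 nearly vanished. Relative to the median of all genes the members stood 0.54 higher, and 62 of 69 lay above it. Under the block 36 members passed in the direction of AO (9.10% of all genes) and 0 in that of NM (9.63%). At 12 hpt the interaction called no member in either direction (0.865% and 1.85% of all genes toward AO and NM). The members' median was then 0.16 and that of all genes -0.10. An unadjusted p under 0.05 was found for 14 members, and DESeq2's Wald test called 2. The block called 8 toward AO (3.68%) and 1 toward NM (3.70%).

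**Figure D3:**
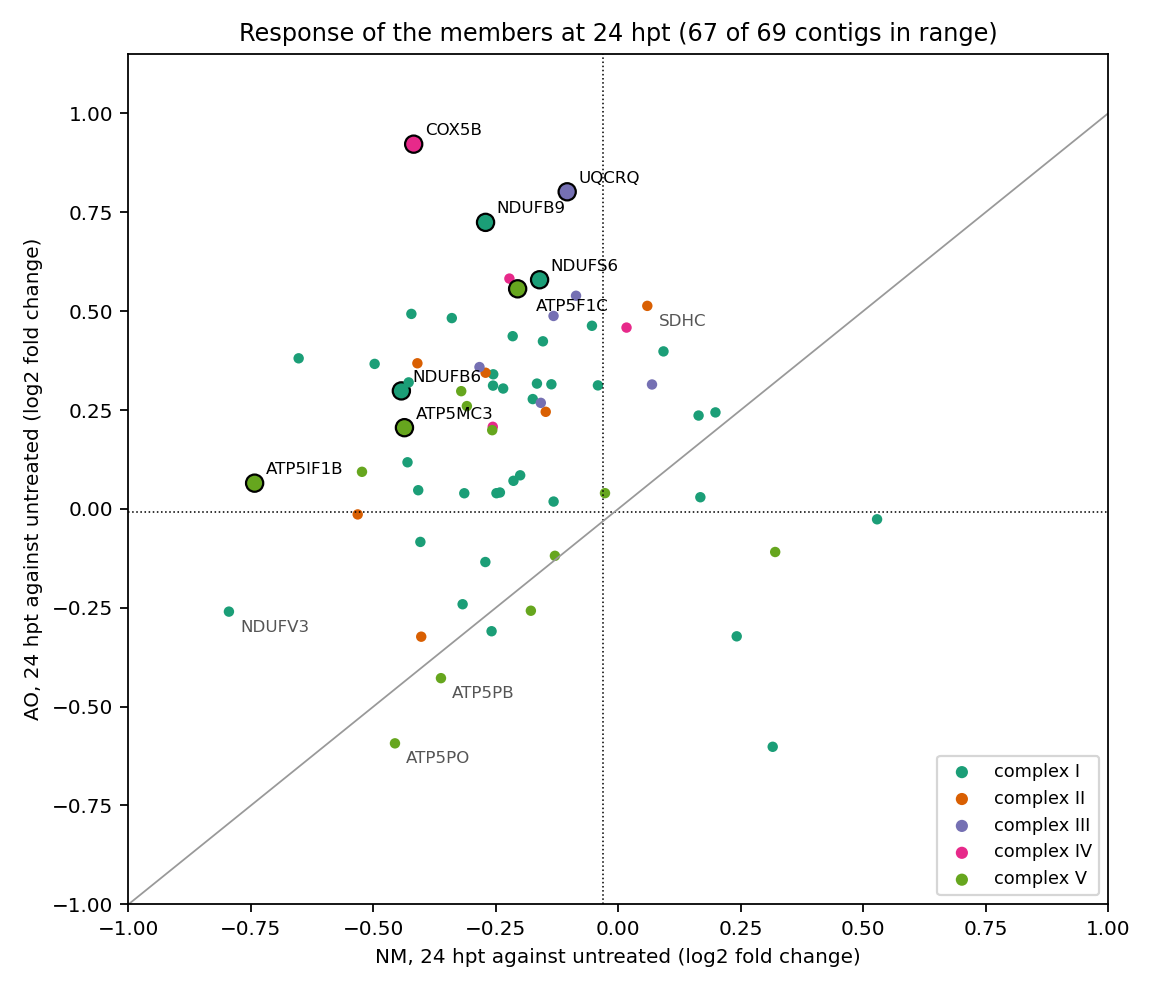
Log2 fold change from untreated to 24 hpt in AO (vertical) and NM (horizontal) with TMM scaling for 67 of the 69 members, coloured by complex; dotted lines mark the medians of all genes, the diagonal equal response, and large points the members whose interaction passed. Most points lie above the diagonal, as the members' median interaction was 0.46. Of the 69 members 62 had an interaction above the median of all genes, which was -0.08. With library totals 2 members passed toward AO and 2 toward NM. The 2 DN101928 contigs lie outside the range.

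Complex I is the entry point for electrons from NADH. Its members are described from the NADH-oxidising N module through the ubiquinone-reducing Q module to the membrane arm. The N module holds the flavin-binding NDUFV1, the iron-sulfur subunits NDUFV2 and NDUFS1 and the accessory subunits NDUFS4, NDUFS6 and NDUFV3, and 5 of its 8 contigs rose in AO at 24 hpt with 0 falling, where 17.1% and 13.6% of all genes did.

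NDUFS6, an accessory subunit with a zinc site, had the smallest FDR of complex I in AO at 24 hpt. Its levels were 82.0 and 88.6 CPM in untreated AO, 106 and 114 in AO at 12 hpt, 129.9 and 125 in AO at 24 hpt, 123 and 126 in untreated NM, 126 and 128 in NM at 12 hpt, 112 and 112 in NM at 24 hpt and 141 and 141 in EP. Both untreated AO libraries lay below all 12 others. The EP libraries were the highest with TMM scaling but not with library totals. From untreated AO to 24 hpt NDUFS6 rose 1.49-fold (log2 fold change 0.58 ± 0.07, edgeR FDR 6.28e-05), against -0.16 ± 0.07 in NM (edgeR FDR 0.0663) with TMM scaling, and the interaction was 0.74 ± 0.09 with an edgeR FDR of 0.000458 with TMM and 0.0254 with library totals. For NM, library totals placed both libraries at 24 hpt above both untreated ones.

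NDUFV1 had 2 contigs. DN90889_c3_g1 stood at 102 and 104 CPM in untreated AO, 132 and 124 in AO at 12 hpt, 144 and 127 in AO at 24 hpt, 129.7 and 123 in untreated NM, 103 and 103 in NM at 12 hpt, 138 and 131 in NM at 24 hpt and 124 and 109 in EP. In AO both treated groups lay above the untreated one (log2 fold change 0.40 ± 0.09, edgeR FDR 0.00386 at 24 hpt), while in NM it was lowest at 12 hpt and rose again to 24 hpt (log2 fold change 0.38 ± 0.09, edgeR FDR 0.00543). DN92960_c5_g2 ran from 81.8 to 116 CPM with no comparison passing. NDUFV2, which carries an iron-sulfur cluster, stood at 71.8 and 74.5 in untreated AO, 73.5 and 65.5 in AO at 12 hpt and 92.4 and 89.6 in AO at 24 hpt, where both libraries lay above all the other AO libraries (log2 fold change 0.32 ± 0.08, edgeR FDR 0.00943).

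NDUFS1, the largest iron-sulfur subunit, had 2 contigs as well. DN112120_c2_g1 stood at 106 and 97.5 CPM in untreated AO, 126 and 121 in AO at 24 hpt, 127 and 130.0 in untreated NM, 119 and 109 in NM at 24 hpt and 112 and 114 in EP. With TMM scaling it was lower in untreated AO than in untreated NM (log2 fold change -0.34 ± 0.07, edgeR FDR 0.00685). With library totals untreated AO lay only just below untreated NM. The contig rose in AO by 24 hpt (log2 fold change 0.28 ± 0.07, edgeR FDR 0.0096). DN112120_c2_g2 stood at 152 and 163 in untreated AO and 140.4 and 146 in AO at 24 hpt, and passed in no comparison without the block. Since both are parts of the same Trinity cluster, reads may have been shared between them. The rise of DN112120_c2_g1 is therefore not shown for NDUFS1 as a whole. NDUFS4, which aids the stability of the module, rose in AO at 24 hpt from 65.9 and 75.0 to 90.5 and 98.6 CPM (log2 fold change 0.42 ± 0.10, edgeR FDR 0.00802). Its untreated AO libraries lay below those of EP, 97.8 and 92.3 CPM, with TMM scaling but overlapped them with library totals. NDUFV3 was the 1 member of the module that fell in NM at 24 hpt, from 17.4 and 20.4 to 9.44 and 12.3 CPM (log2 fold change -0.79 ± 0.21, edgeR FDR 0.00887; -0.41 and FDR 0.149 with library totals).

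The Q module passes electrons to ubiquinone. NDUFS8, with 2 iron-sulfur clusters, rose in AO from 140.0 and 132 CPM untreated to 156 and 157 at 12 hpt and 168 and 170.2 at 24 hpt, with no overlap between the times (log2 fold change 0.31 ± 0.07, edgeR FDR 0.00542). NDUFS3 and NDUFS7 had log2 fold changes of 0.32 and 0.44 in the same comparison and passed only with the block, at edgeR FDRs of 0.00042 and 0.000435.

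NDUFA5, an accessory subunit of the Q module, stood at 170.1 and 195 CPM in untreated AO, 265 and 324 in untreated NM and 318 and 369.9 in EP. Untreated AO lay below both, and it passed against EP (log2 fold change -0.91 ± 0.16, edgeR FDR 0.00148), though with library totals it did not (-0.58, FDR 0.0207). NDUFA9, which binds NADPH, stood at 62.7 and 59.7 CPM in untreated AO and fell to 46.9 and 47.2 at 12 hpt (log2 fold change -0.38 ± 0.09, edgeR FDR 0.00762). NDUFA6 fell between 12 hpt and 24 hpt in NM, from 226 and 202 to 161 and 148 CPM (log2 fold change -0.47 ± 0.11, edgeR FDR 0.00656), with -0.16 and an FDR of 0.203 under library totals.

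In the membrane arm, through which protons are pumped, NDUFB6 and NDUFB9 were the subunits of the distal end that passed. NDUFB6 levels were 52.7 and 57.6 CPM in untreated AO, 55.2 and 55.3 in AO at 12 hpt, 69.9 and 65.7 in AO at 24 hpt, 75.1 and 71.3 in untreated NM, 76.8 and 69.2 in NM at 12 hpt, 54.5 and 53.3 in NM at 24 hpt and 81.9 and 77.0 in EP. AO at 24 hpt lay above the other AO groups, and NM at 24 hpt below the other NM groups and about as low as untreated AO. The drop in NM passed with TMM scaling (log2 fold change -0.44 ± 0.08, edgeR FDR 0.000976) and was -0.06 with library totals. NDUFB9 levels were 81.7 and 83.3 CPM in untreated AO, 100.13 and 122 in AO at 12 hpt, 126 and 147 in AO at 24 hpt, 115 and 133 in untreated NM, 124 and 154 in NM at 12 hpt, 96.6 and 109 in NM at 24 hpt and 129 and 154 in EP. Both treated AO groups lay above untreated AO, and 24 hpt passed (log2 fold change 0.72 ± 0.15, edgeR FDR 0.00275). NDUFA8 of the proximal arm passed against EP only (log2 fold change -0.64 ± 0.16, edgeR FDR 0.00954), and no longer did when any 1 of the 4 libraries compared was left out or with library totals (-0.31).

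The 8 contigs of complex I assembly factors, NDUFAF1, NDUFAF3 to NDUFAF7 among them, passed in no comparison without the block. With the 2 of complex II the 10 assembly factors had a median log2 fold change of 0.01 in AO at 24 hpt, where the 57 subunits had 0.30. NDUFAF5 contigs stood at 2.67 to 6.19 CPM (DN85832_c0_g1) and 1.98 to 5.21 CPM (DN85832_c0_g2), and NDUFAF7 at 1.56 to 2.76 CPM (DN111738_c3_g1) and 8.18 to 17.5 CPM (DN111738_c3_g2), in each case over all 14 libraries.

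Complex II, succinate dehydrogenase, has a matrix part of SDHA, which binds the flavin, and SDHB, with the iron-sulfur clusters, and a membrane anchor of SDHC and SDHD. In AO the anchor SDHC passed as higher, and neither matrix subunit passed without the block. SDHC levels were 82.0 and 98.3 CPM in untreated AO, 132 and 144 in AO at 12 hpt, 121 and 136 in AO at 24 hpt, 115 and 123 in untreated NM, 128 and 137 in NM at 12 hpt, 114 and 134 in NM at 24 hpt and 113 and 125 in EP. With TMM scaling untreated AO lay below all other groups, while with library totals it overlapped EP. In AO, SDHC rose by 12 hpt (log2 fold change 0.62 ± 0.12, edgeR FDR 0.00214) and stood so at 24 hpt (log2 fold change 0.51 ± 0.12, edgeR FDR 0.00485). The contig named SDHDB did not pass at 24 hpt (log2 fold change 0.34 ± 0.10, edgeR FDR 0.0214). SDHB levels were 116 and 118 CPM in untreated AO, 81.8 and 96.9 in AO at 12 hpt, 87.1 and 100.03 in AO at 24 hpt, 103 and 115 in untreated NM, 87.4 and 92.1 in NM at 12 hpt, 81.6 and 83.4 in NM at 24 hpt and 90.5 and 90.4 in EP. Untreated AO was the highest of the AO groups, but the drop to 24 hpt passed only with the block (-0.32, edgeR FDR 0.0221, with the block 0.00127). In NM, SDHB was lower at 24 hpt (log2 fold change -0.40 ± 0.10, edgeR FDR 0.00656), and -0.02 with library totals.

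SDHA was higher in the second library than in the first in every group but untreated AO. It stood at 95.6 and 94.4 CPM in untreated AO, 95.1 and 139.8 in AO at 12 hpt and 102 and 124 in AO at 24 hpt. Levels were 119 and 161 in untreated NM, 93.4 and 126 in NM at 12 hpt and 106 and 146 in NM at 24 hpt. EP stood at 85.9 and 117, and SDHA passed in no comparison without the block. SDHAF3, an assembly factor for SDHB in yeast and flies, had its highest mean in EP with TMM scaling, at 27.2 and 25 CPM. It stood at 15.1 and 13 CPM in untreated AO, 17.8 and 17.3 in untreated NM, 21.6 and 25.3 in NM at 12 hpt and 13.4 and 13 in NM at 24 hpt, and its groups did not overlap between EP and either untreated organ (log2 fold change -0.89 ± 0.13, edgeR FDR 0.000319 for AO and log2 fold change -0.57 ± 0.13, edgeR FDR 0.00527 for NM).

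Complex III passes electrons from ubiquinol to cytochrome c. All 6 members lay above the median of all genes in AO at 24 hpt against untreated AO, and 2 passed. UQCRQ, a small accessory subunit, had levels of 37.8 and 45.8 CPM in untreated AO, 65.8 and 59.4 in AO at 12 hpt, 77.0 and 68.7 in AO at 24 hpt, 60.6 and 56.5 in untreated NM, 85.4 and 70.1 in NM at 12 hpt, 57.6 and 51.3 in NM at 24 hpt and 90.7 and 86.0 in EP. With TMM scaling untreated AO was the lowest group and EP the highest, and neither overlapped any other group. With library totals untreated AO stayed lowest, but EP overlapped AO at 24 hpt and NM at 12 hpt. UQCRQ was 2.11-fold lower in untreated AO than in EP (log2 fold change -1.08 ± 0.13, edgeR FDR 9.13e-05), with -0.74 under library totals. It rose in AO by 12 hpt (log2 fold change 0.58 ± 0.13, edgeR FDR 0.00487) and stood higher at 24 hpt (log2 fold change 0.80 ± 0.13, edgeR FDR 0.000534), whereas NM showed -0.10 ± 0.13 at 24 hpt (edgeR FDR 0.531) with TMM scaling. For NM, library totals placed both libraries at 24 hpt above both untreated ones.

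The core protein UQCRC1 stood at 115 and 112 CPM in untreated AO, 146 and 140.0 in AO at 12 hpt, 184 and 145 in AO at 24 hpt, 147 and 147 in untreated NM, 131 and 127 in NM at 12 hpt, 148 and 129 in NM at 24 hpt and 155 and 139.9 in EP. With TMM scaling it was lowest in untreated AO, which overlapped EP with library totals. In AO, 24 hpt passed (log2 fold change 0.54 ± 0.11, edgeR FDR 0.00289). Its partner UQCRC2 did not pass (log2 fold change 0.27 ± 0.09, edgeR FDR 0.0282). The catalytic subunits CYC1, cytochrome c1, and UQCRFS1, the Rieske iron-sulfur protein, had log2 fold changes of 0.31 and 0.36 in that comparison and passed only with the block, at edgeR FDRs of 0.0027 and 0.00355. UQCRB differed widely between the libraries of each group, for example 724 and 400.1 CPM in AO at 24 hpt, and passed only with the block, as lower in untreated AO than in EP and NM and as higher in AO at 24 hpt.

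Complex IV, cytochrome c oxidase, held 3 of the 4 members past 2-fold. COX5B, a nucleus-encoded subunit that binds zinc, had levels of 29.0 and 31.5 CPM in untreated AO, 48.8 and 45.1 in AO at 12 hpt, 56.5 and 58.3 in AO at 24 hpt, 34.2 and 40.9 in untreated NM, 73.5 and 74.1 in NM at 12 hpt, 30.1 and 26.3 in NM at 24 hpt and 106 and 102 in EP. No 2 of the 3 AO groups overlapped, nor did EP with any other group. It was 3.43-fold lower in untreated AO than in EP (log2 fold change -1.78 ± 0.10, edgeR FDR 4.86e-07) and also lower in untreated NM (log2 fold change -1.47 ± 0.10, edgeR FDR 1.84e-06). Levels rose in AO through 12 hpt (log2 fold change 0.63 ± 0.10, edgeR FDR 0.000781) to 24 hpt (log2 fold change 0.92 ± 0.10, edgeR FDR 4.55e-05). In NM they rose at 12 hpt (log2 fold change 0.97 ± 0.10, edgeR FDR 5.4e-05) and at 24 hpt were below untreated NM (log2 fold change -0.42 ± 0.10, edgeR FDR 0.00672), which was -0.04 with library totals.

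**Figure D4:**
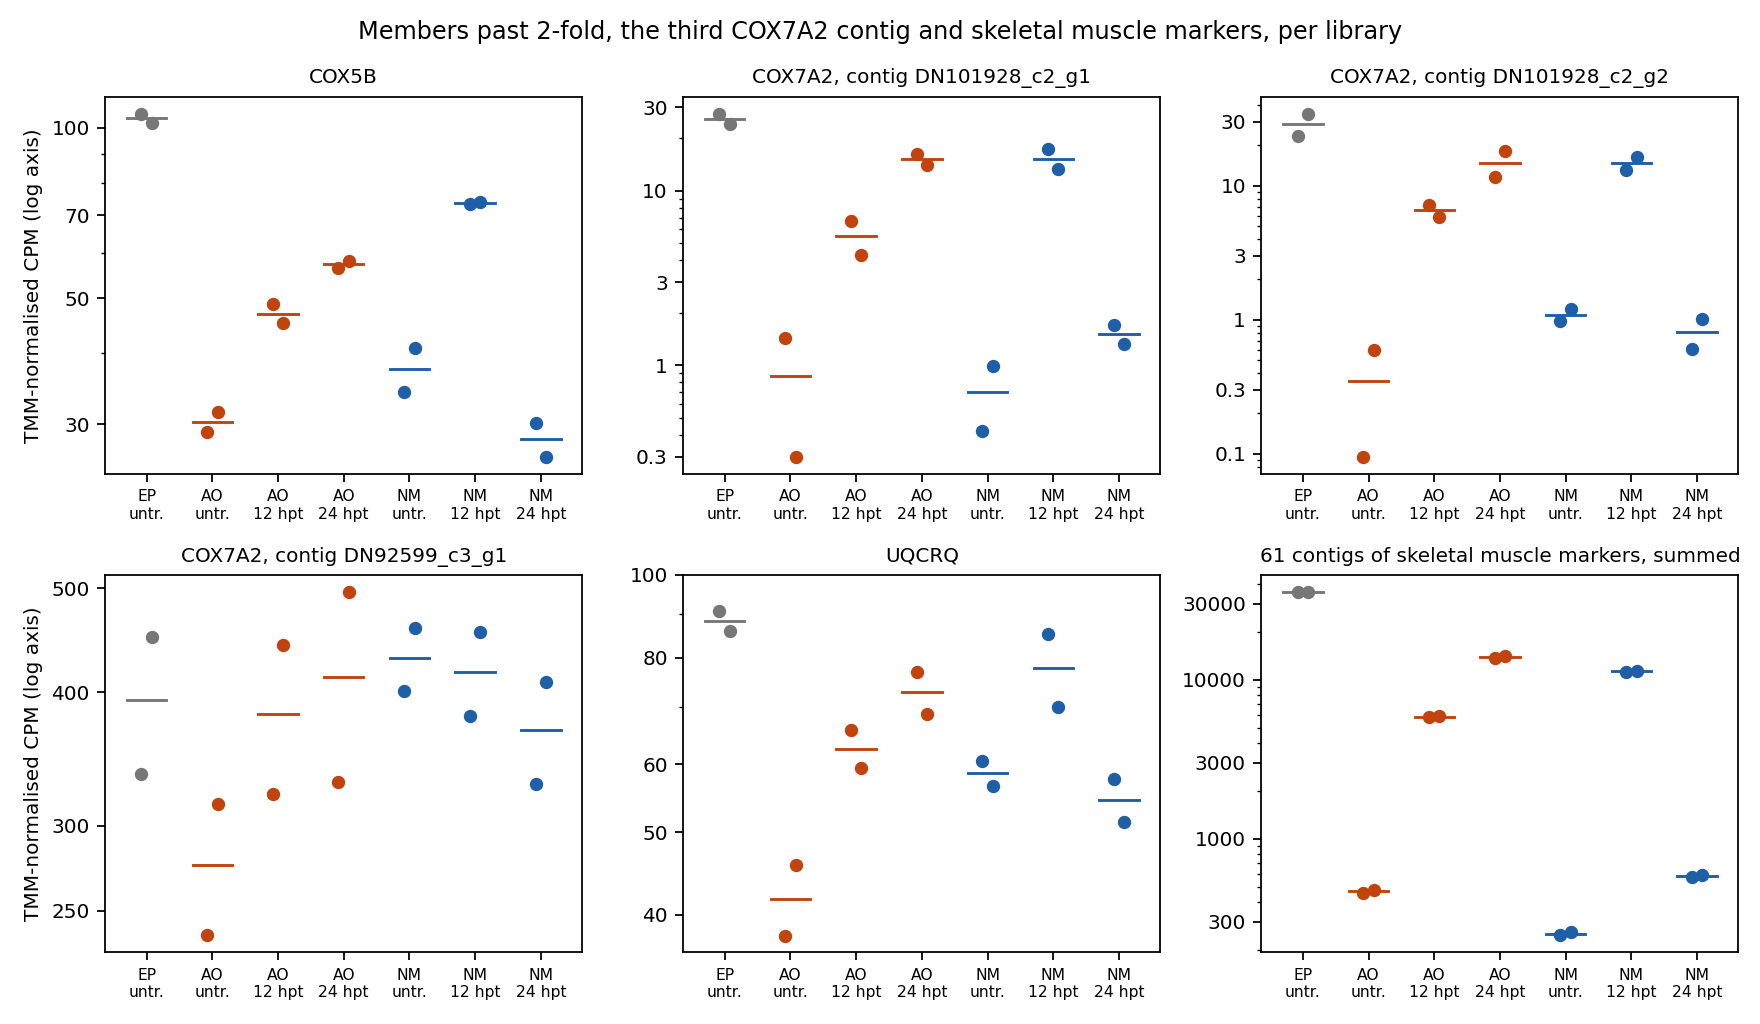
TMM-normalised CPM on log axes in each of the 14 libraries, with lines at group means, for the 4 members past 2-fold, the third COX7A2 contig and the sum of 61 skeletal muscle contigs. COX5B and both DN101928 contigs are highest in EP, then in NM at 12 hpt and AO at 24 hpt, which are also the 3 groups with the highest muscle sums.

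COX7A2 encodes subunit 7A, which in mammals has a form of heart and skeletal muscle (COX7A1) and a form of most other tissues (COX7A2). The contig DN101928_c2_g1 stood at 1.43 and 0.299 CPM in untreated AO, 6.75 and 4.27 in AO at 12 hpt, 16.3 and 14.0 in AO at 24 hpt, 0.421 and 0.986 in untreated NM, 17.3 and 13.2 in NM at 12 hpt, 1.70 and 1.32 in NM at 24 hpt and 27.6 and 24.0 in EP. DN101928_c2_g2 stood at 0.0952 and 0.599 CPM in untreated AO, 7.24 and 5.87 in AO at 12 hpt, 11.7 and 18.1 in AO at 24 hpt, 0.981 and 1.21 in untreated NM, 13.1 and 16.4 in NM at 12 hpt, 0.605 and 1.01 in NM at 24 hpt and 23.7 and 34.5 in EP. Both stood at 1.70 CPM or less in untreated AO and NM and in NM at 24 hpt, and at 11.7 CPM or more in EP, AO at 24 hpt and NM at 12 hpt. In untreated AO they rested on 14.6 and 3.19 counts (DN101928_c2_g1) and 1.28 and 6.48 counts (DN101928_c2_g2), so the size of their folds is loose, as the SE shows.

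From untreated AO to 24 hpt these contigs rose by log2 fold changes of 4.09 ± 0.41 and 5.39 ± 0.48 (edgeR FDR 2.63e-05 and 1.15e-05). From untreated NM to 12 hpt they rose by 4.34 and 3.73 (edgeR FDR 5.67e-05 and 8.72e-05). They then fell by 3.33 and 4.14 on the log2 scale to NM at 24 hpt. Since both are parts of 1 Trinity cluster, reads may have been shared between them and they do not count as independent. The groups in which they and COX5B were high, EP, NM at 12 hpt, AO at 24 hpt and AO at 12 hpt, were the 4 with muscle sums of 5811 CPM or more, and the part of muscle RNA in these levels was not tested. Blood markers (9 contigs) summed to 4014 to 5228 CPM in EP, 4084 to 4654 in NM at 12 hpt, 1577 to 2429 in AO at 24 hpt, 1650.1 to 2069.8 in AO at 12 hpt, 1631 to 1901 in untreated AO, 1188 to 1504 in NM at 24 hpt and 574 to 716 in untreated NM. All 8 tested blood contigs rose in NM at 12 hpt, at a median log2 fold change of 3.15, and their part was not tested either.

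The third COX7A2 contig, DN92599_c3_g1, was abundant in every library, at 237 and 314 CPM in untreated AO, 321 and 442 in AO at 12 hpt, 329.9 and 496 in AO at 24 hpt, 401 and 459 in untreated NM, 379.8 and 456 in NM at 12 hpt, 328 and 409 in NM at 24 hpt and 336 and 450.2 in EP. In each group the second library was higher than the first, and it passed in no comparison without the block. With the block it was lower in untreated AO than in EP (-0.51, edgeR FDR 0.000601) and rose in AO by 24 hpt (0.57, FDR 0.000206). COX7A2L, a factor that joins complexes III and IV into supercomplexes, stood at 47.2 and 47.6 CPM in untreated AO, 68.6 and 68.1 in AO at 12 hpt, 68.2 and 62.1 in AO at 24 hpt, 67.0 and 58.6 in untreated NM, 77.5 and 68.8 in NM at 12 hpt, 67.3 and 59.7 in NM at 24 hpt and 81.5 and 80.7 in EP. Untreated AO was its lowest group, without overlap with any other (log2 fold change -0.77 ± 0.09, edgeR FDR 0.000124 against EP, log2 fold change 0.53 ± 0.09, edgeR FDR 0.00165 to 12 hpt and log2 fold change 0.46 ± 0.09, edgeR FDR 0.00291 to 24 hpt). COX5A, a subunit on the matrix side of the complex, did not pass in AO at 24 hpt (log2 fold change 0.21 ± 0.08, edgeR FDR 0.0628) nor elsewhere without the block.

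Complex V, the ATP synthase, held members that rose and members that fell in AO. Its median in AO at 24 hpt was 0.07, with 8 of 13 contigs above the median of all genes. The peripheral stalk subunits ATP5PB (subunit b) and ATP5PO (OSCP) were highest in untreated AO. ATP5PB levels were 276 and 281 CPM in untreated AO, 161 and 166 in AO at 12 hpt, 209 and 205 in AO at 24 hpt, 225 and 222 in untreated NM, 152 and 160.2 in NM at 12 hpt, 169.9 and 178 in NM at 24 hpt and 208 and 212 in EP. Untreated AO lay above all other groups, and with TMM scaling both treated groups of each organ lay below their untreated one. With library totals NM at 24 hpt no longer lay below untreated NM. ATP5PB fell in AO to 12 hpt (log2 fold change -0.77 ± 0.06, edgeR FDR 8.33e-06) and stood lower also at 24 hpt (log2 fold change -0.43 ± 0.06, edgeR FDR 0.000249), and in NM it fell to 12 hpt (log2 fold change -0.52 ± 0.06, edgeR FDR 0.000123). Its drops at 24 hpt in AO and at 12 hpt in NM did not pass with the fit on the groups compared.

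ATP5PO levels were 418 and 407 CPM in untreated AO, 251 and 272 in AO at 12 hpt, 254 and 293 in AO at 24 hpt, 305 and 320.4 in untreated NM, 309 and 307 in NM at 12 hpt, 221 and 235 in NM at 24 hpt and 308 and 354 in EP. Untreated AO again lay above all other groups. In AO it fell to 12 hpt (log2 fold change -0.66 ± 0.09, edgeR FDR 0.000339) and stood lower at 24 hpt (log2 fold change -0.59 ± 0.09, edgeR FDR 0.000468). The AO drop at 24 hpt did not pass with the fit on the groups compared. In NM a drop passed at 24 hpt only (log2 fold change -0.46 ± 0.09, edgeR FDR 0.00202), and there the value was -0.07 with library totals. ATP5PD and ATP5PF, the other stalk members, stood at 0.09 and 0.30 in AO at 24 hpt without passing.

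The catalytic head holds ATP5F1A (alpha), ATP5F1B (beta) and the rotor subunits ATP5F1C (gamma) and ATP5F1D (delta). ATP5F1A levels were 487 and 469 CPM in untreated AO, 384 and 371 in AO at 12 hpt, 443 and 437 in AO at 24 hpt, 439 and 412 in untreated NM, 393 and 376 in NM at 12 hpt, 395 and 384 in NM at 24 hpt and 404 and 391 in EP. Untreated AO was the highest group without overlap (log2 fold change 0.27 ± 0.06, edgeR FDR 0.0072 against EP) and fell to 12 hpt (log2 fold change -0.34 ± 0.06, edgeR FDR 0.00186). ATP5F1C went the other way, at 216 and 213 CPM in untreated AO, 252 and 244 in AO at 12 hpt, 319 and 312 in AO at 24 hpt, 298 and 271 in untreated NM, 327 and 298 in NM at 12 hpt, 258 and 236 in NM at 24 hpt and 364 and 330.4 in EP. Untreated AO was its lowest group, and it was lower there than in EP (log2 fold change -0.70 ± 0.08, edgeR FDR 0.0001) and rose by 24 hpt (log2 fold change 0.56 ± 0.08, edgeR FDR 0.000366). ATP5F1B passed in no comparison without the block and its libraries differed within groups, with 955 and 695 CPM in AO at 24 hpt.

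**Figure D5:**
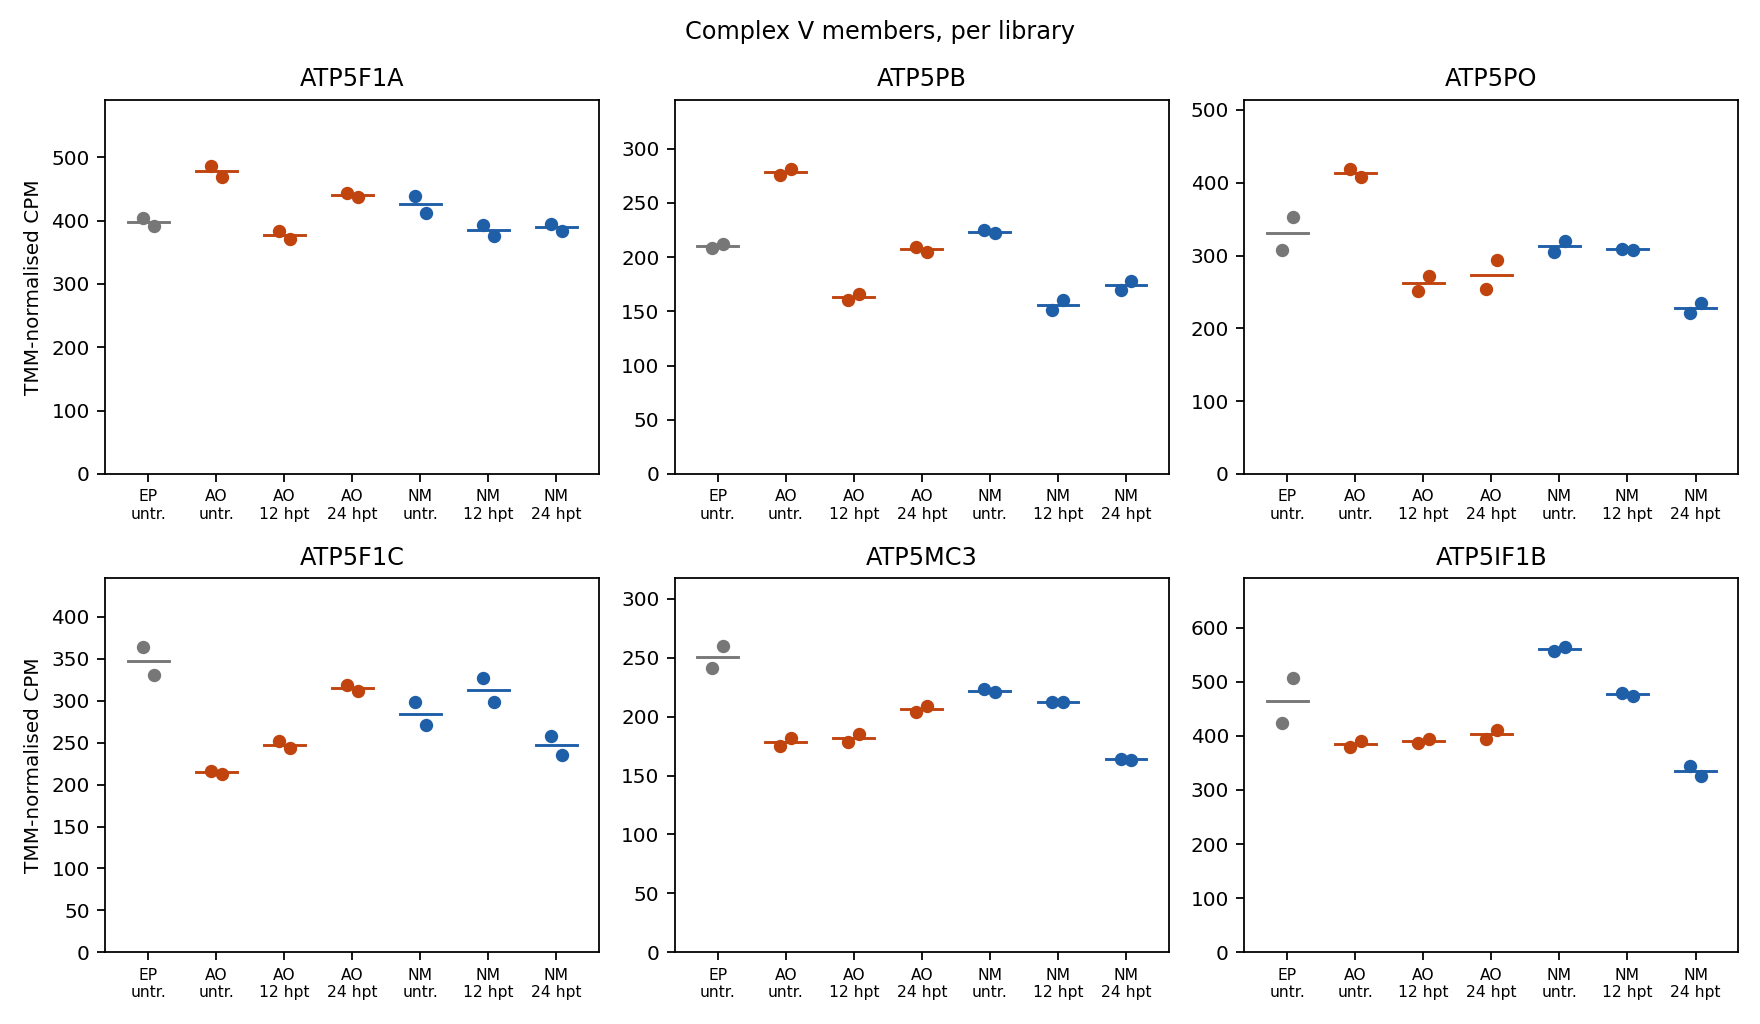
TMM-normalised CPM of 6 complex V members in each library, with lines at group means. ATP5PB, ATP5PO and ATP5F1A are highest in untreated AO and ATP5F1C is lowest there; ATP5IF1B and ATP5MC3 are lowest in NM at 24 hpt with this scaling, where library totals give log2 fold changes from untreated NM of -0.36 and -0.05.

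ATP5IF1B carries the name of the inhibitor that blocks ATP hydrolysis by the synthase. Its levels were 379 and 391 CPM in untreated AO, 386 and 395 in AO at 12 hpt, 394 and 411 in AO at 24 hpt, 557 and 564 in untreated NM, 479.9 and 474 in NM at 12 hpt, 344 and 327 in NM at 24 hpt and 424 and 506 in EP. The AO groups lay close together (log2 fold change 0.07 at 24 hpt, edgeR FDR 0.56), while NM lay lower at 12 hpt than untreated and lowest at 24 hpt, where the drop passed (log2 fold change -0.74 ± 0.08, edgeR FDR 3.71e-05). Untreated AO held less of it than untreated NM (log2 fold change -0.54 ± 0.08, edgeR FDR 0.00131). ATP5MC3, a gene for the proton-carrying c ring, stood at 175 and 182 CPM in untreated AO, 178 and 185 in AO at 12 hpt, 204 and 209 in AO at 24 hpt, 223 and 221 in untreated NM, 213 and 212 in NM at 12 hpt, 164 and 164 in NM at 24 hpt and 241 and 259.8 in EP. With TMM scaling NM at 24 hpt was its lowest group (log2 fold change -0.44 ± 0.06, edgeR FDR 0.000194), which with library totals became -0.05. The second c ring gene, ATP5MC2, passed nowhere (in AO at 24 hpt log2 fold change 0.04 ± 0.22, edgeR FDR 0.904).

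Some subunits lay outside the naming rule because their symbol was missing or spelt otherwise. The abundant contig of cytochrome c oxidase subunit 4 isoform 1 (DN87936_c6_g2), which has no symbol in the annotation, stood at 596 and 555 CPM in untreated AO, 779 and 713 in AO at 12 hpt, 874 and 802 in AO at 24 hpt, 776 and 731 in untreated NM, 942 and 879 in NM at 12 hpt, 782 and 726 in NM at 24 hpt and 923 and 858 in EP. It was lower in untreated AO than in EP (log2 fold change -0.63 ± 0.08, edgeR FDR 0.000221) and higher in AO at 24 hpt (log2 fold change 0.54 ± 0.08, edgeR FDR 0.000481). Isoform 2, a form of lung and low oxygen in mammals, was highest in EP at 13 and 14.3 CPM and stood at 2.91 to 6.62 CPM elsewhere (log2 fold change -1.50 ± 0.15, edgeR FDR 2.35e-05 for AO). The main cytochrome c contig (DN101074_c0_g2) was lower in untreated AO, 74.1 and 80.5 CPM, than in EP, 111 and 124 (log2 fold change -0.61 ± 0.11, edgeR FDR 0.00154). The second tested cytochrome c contig (DN92767_c6_g2) did not pass there (log2 fold change -0.37 ± 0.15, edgeR FDR 0.0766), was higher in untreated NM than in EP (log2 fold change 0.64 ± 0.14, edgeR FDR 0.00581), rose in AO at 12 hpt (log2 fold change 0.89 ± 0.14, edgeR FDR 0.000802) and had 0.01 at 24 hpt. The COX6A contig (DN97976_c0_g1) passed in no comparison (log2 fold change -0.30 ± 0.15, edgeR FDR 0.142 for AO against EP and log2 fold change 0.45 ± 0.15, edgeR FDR 0.0337 for AO at 24 hpt).

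Of the subunits encoded by the mitochondrial genome, MT-ND1, MT-ND5 and MT-CO2 were in the table. In NM at 24 hpt against untreated NM all 3 were lower with TMM scaling, with a median log2 fold change of -0.88. In AO at 24 hpt MT-ND1 was higher and MT-ND5 lower. Their interaction at 24 hpt was toward AO for all 3 at a median of 0.82 with TMM scaling. Library totals move the all-gene median by 0.38 in NM at 24 hpt and by -0.40 in that interaction. Of all genes 17.2% passed as lower in NM at 24 hpt, 17.1% as higher and 13.6% as lower in AO at 24 hpt, and 4.50% toward AO in the interaction. The libraries' raw share of these 3 genes was 0.928% to 0.943% in untreated NM and 0.482% to 0.722% in the other groups, so untreated NM stood apart.

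Of 31 tested contigs of other assembly factors of the chain, 2 rose in AO at 24 hpt (TIMMDC1 and COX20) and 4 fell in NM at 24 hpt (ACAD9, NUBPL, COX16 and SURF1). Of all genes 17.1% rose and 13.6% fell in AO at 24 hpt, and 20.1% rose and 17.2% fell in NM at 24 hpt. In the citric acid cycle 9 of 23 contigs rose in AO at 24 hpt and 1 fell, at a median of 0.29 against 0.27 for the members. IDH3B and IDH3G of isocitrate dehydrogenase, SUCLG1 and SUCLA2 of succinyl-CoA synthetase, fumarase (FH) and PDHA1 of pyruvate dehydrogenase were among those that rose, and a contig of pyruvate carboxylase (PC) fell. In NM at 24 hpt 3 rose (OGDHL and a DLD contig among them) and 3 fell (SUCLG1, SUCLG2 and IDH2).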

How the data were processed

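The authors trimmed reads with Trimmomatic 0.38, assembled a transcriptome with Trinity, named contigs from proteins of other species and deposited RSEM expected counts per gene, a unit that need not be whole. Here the counts were rounded and tested with edgeR 4.0.16 (R 4.3.3): TMM factors, filterByExpr by group, and a quasi-likelihood fit of all 14 libraries with 13 contrasts, with p-values adjusted over all 21978 genes tested. The script was tested on simulated counts drawn without a replicate effect. That test does not bear on the shared deviations of the replicates given below. All columns of the table were used.

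Replicate numbers came from the labels. Deviations from group means correlated in 21 of 21 pairs of groups (r 0.125 to 0.232), so a fit with the number as a block was run as well. Over the members alone r was larger, with a median of 0.569 and a range from -0.026 to 0.805. Counts not marked as from the block come from the fit without it. Other alternatives were DESeq2 1.42.0, other scalings and filters, an FDR of 0.05, fits on the groups compared and each library left out. The comparisons at 12 hpt and 24 hpt share their untreated libraries.

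The members, lists and named-gene rule were chosen with earlier results of these data known. Named by rule were members past 2-fold, the 3 with the smallest FDR in each direction of each comparison, catalytic and electron-carrying subunits, members with tissue-dependent paralogs, and symbols with several contigs. Further passing members (ATP5F1C, NDUFB9, SDHC, NDUFA5, SDHAF3, UQCRC1 and others) and non-passing subunits named beside them were named after their values were seen. No member sequences or contig lengths were analysed here. Single values of some members and listed genes are not reported here.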

Additional observations from a re-analysis of the deposited data

Results flagged for a closer look

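The response from untreated to 24 hpt differed between AO and NM in 9 members by edgeR's interaction term with TMM scaling, each toward AO. The log2 difference of the responses was 0.74 for NDUFB6, 1.00 for NDUFB9, 0.74 for NDUFS6, 0.91 for UQCRQ, 1.34 for COX5B, 5.81 for the COX7A2 contig DN101928_c2_g2, 0.76 for ATP5F1C, 0.81 for ATP5IF1B and 0.64 for ATP5MC3. With library totals the same differences were 0.34, 0.59, 0.34, 0.50, 0.94, 5.42, 0.36, 0.41 and 0.24. Of these, COX5B (edgeR FDR 0.000912) and DN101928_c2_g2 (0.00188) passed with library totals.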

How the results depend on the processing

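Direction held in AO against AO under every scaling. Comparisons are listed in 1 order: AO and NM against EP, AO against NM, AO and NM at 12 hpt and at 24 hpt against untreated, 24 hpt against 12 hpt in AO and NM, AO against NM at 12 hpt and 24 hpt, and the interactions at 12 hpt and 24 hpt. The cause of the shifts was not tested.

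With the block 35, 18, 34, 24, 15, 38, 27, 12, 26, 15, 15, 9 and 36 members passed, and it ended no call. At an FDR under 0.05, 28, 10, 25, 17 and 8 passed in the first 5, 22 in NM at 24 hpt, 8, 23, 9 and 9 in the next 4 after it, and 4 and 28 in the interactions. With fits on the groups compared, 3 passed in NM against EP, 0 in AO against NM, 5 in AO at 12 hpt, 7 and 1 in AO and NM at 24 hpt, 0 and 3 between the times, and 0 and 2 between organs. With library totals, a setting chosen after seeing the data, 5 passed in AO against NM, 4 between times in AO and 4 in the interaction at 24 hpt. The exact test on the groups compared gave 22 in AO against NM, 2 in NM at 24 hpt and 7 between times in NM. With the dispersion of all libraries, also chosen after seeing the data, it gave 17 in AO against NM, 5 between times in AO and 6 in AO against NM at 12 hpt. DESeq2's Wald test gave 16 in AO against NM, 5 between times in AO, and 2 and 14 in the interactions. Without a filter 1 passed between times in AO.

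Leaving out 1 library gave 11 to 16, 3 to 5, 1 to 7, 4 to 12, 4 to 4, 8 to 15, 5 to 8, 0 to 2, 6 to 11, 0 to 2, 3 to 4, 0 to 0 and 7 to 9.

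The members' median log2 fold change turned with library totals to 0.11 in AO against EP, 0.0054 in NM at 12 hpt, 0.14 in NM at 24 hpt, 0.14 between the times in NM and 0.050 in AO against NM at 12 hpt. In NM against EP it was -0.023 and -0.015 without the first untreated NM or the second EP library, and 0.094 without the second untreated NM library.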

Other observations

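Other genes of energy metabolism also moved after neomycin. Of all genes tested, 17.1% rose and 13.6% fell in AO at 24 hpt, and 20.1% rose and 17.2% fell in NM at 24 hpt, against which the counts that follow are read. Of 37 tested contigs of glycolysis, 26 rose and 1 fell in AO at 24 hpt, at a median log2 fold change of 0.92, and 22 rose and 3 fell in NM at 24 hpt, at 0.89. ENO3 and ENO2, enolases named for muscle and neurons in mammals, rose by 4.22 and 2.76 in AO, and ENO2, ALDOC and LDHA by 5.25, 3.75 and 2.93 in NM. Of 20 carriers and energy-buffering genes 8 rose and 4 fell in AO, where the ADP/ATP carrier SLC25A4 rose by 5.14, and 5 rose and 7 fell in NM, where the creatine kinases CKMT1 and CKB rose by 5.75 and 4.15. Of 57 muscle contigs 51 rose in AO and 24 in NM, of 18 neuron contigs 14 rose in AO and 16 in NM, at medians of 2.15 and 4.07, and their part was not tested.

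Of 76 tested cytosolic ribosomal proteins, which build the cell's own ribosomes, 56 fell and 3 rose in NM at 24 hpt, against 13 and 9 in AO, with TMM scaling. Their median log2 fold change in NM was -0.82, and library totals raise the median of all genes in that comparison by 0.38. Of 69 mitochondrial ribosomal proteins 4 rose and 1 fell in AO, and 0 and 7 in NM. Of 22 antioxidant and quality control genes 7 rose and 1 fell in AO, with the chaperonin HSPD1 at 0.95, and 1 and 3 in NM. Of 19 regulators of mitochondrial biogenesis 1 rose and 1 fell in AO and 3 and 1 in NM.

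Summed levels of the marker lists not given by group were 937 to 1462 CPM for ionocytes and 11555 to 23489 for keratinocytes over all libraries.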
